A study of Homo sapiens with 8 samples.

Results

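Pomalidomide (POM) given alone was set against its solvent DMSO in the peak lists of 2 of the 8 libraries of a chromatin immunoprecipitation study. The cells were OPM-2, an established human myeloma line with the t(4;14) translocation, which places NSD2 and FGFR3 next to immunoglobulin enhancers. Both cultures were grown for 72 h, with DMSO in one and with 1 µM POM in the other. Each treatment had 1 ChIP library and 1 input library. Another culture had ATRA (all-trans retinoic acid, 1 µM) and another had ATRA with POM. Their lists enter only as values set side by side. The labels do not name the antibody, so a peak marks an enriched site of an unnamed target. On chromosomes 1 to 22 and X the DMSO list held 50946 peaks and the POM list 54279. They merge into 64259 regions, of the 67328 that all 4 lists give. A peak counted as shared when it overlapped a peak of the other list by at least 1 bp. With 1 library on each side there was no replicate and no test, and every interval covers counting error only.

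Pomalidomide binds cereblon, the substrate receptor of a cullin-RING ubiquitin ligase. The bound ligase takes up the zinc finger factors IKZF1 (Ikaros) and IKZF3 (Aiolos), which are then degraded. Both factors act on chromatin, and in myeloma cells they keep IRF4 and MYC expressed. Interferon-stimulated genes are known to be switched on in myeloma cells that have lost them.

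Of the POM peaks, 16368 were called with POM alone, or 30.2% (95% Wilson interval 29.8 to 30.5). Of the DMSO peaks, 14923 were called with DMSO alone, or 29.3% (28.9 to 29.7). The 2 sets are of like size but lie in different places. Within 1000 bp of a gene start lay 4.96% of the peaks called with POM alone (4.64 to 5.30) and 13.0% of those called with DMSO alone (12.5 to 13.6). The promoters touched by 1 list alone also differed in their sequence, and 7 of them are printed here with the letters that differ in capitals.

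Promoters are the RefSeq windows from 250 bases before to 50 after a gene start on GRCh38.p14, 22012 in all for protein-coding genes. A peak of both lists touched 8309 of them, a POM peak alone 286, a DMSO peak alone 1230 and no peak of either list 12187. The first 4 sequences were touched with POM alone, and the capitals mark TGANTCA, the site bound by AP-1, a dimer of JUN and FOS family proteins. Each reads 5′ to 3′ on the gene's strand.
GCNT3, chr15:59611533-59611832, plus strand: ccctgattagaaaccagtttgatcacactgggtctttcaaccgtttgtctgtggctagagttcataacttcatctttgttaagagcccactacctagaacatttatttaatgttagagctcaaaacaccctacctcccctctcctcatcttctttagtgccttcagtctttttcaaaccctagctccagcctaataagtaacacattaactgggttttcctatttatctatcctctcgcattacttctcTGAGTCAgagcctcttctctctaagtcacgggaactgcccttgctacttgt
SPRR2A, chr1:153057463-153057762, minus strand: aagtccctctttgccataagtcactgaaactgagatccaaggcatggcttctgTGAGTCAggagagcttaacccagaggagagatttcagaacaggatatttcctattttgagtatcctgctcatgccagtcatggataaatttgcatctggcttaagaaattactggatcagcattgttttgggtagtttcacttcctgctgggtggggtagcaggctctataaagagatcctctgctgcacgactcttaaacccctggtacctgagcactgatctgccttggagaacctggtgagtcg
S100A2, chr1:153565795-153566094, minus strand: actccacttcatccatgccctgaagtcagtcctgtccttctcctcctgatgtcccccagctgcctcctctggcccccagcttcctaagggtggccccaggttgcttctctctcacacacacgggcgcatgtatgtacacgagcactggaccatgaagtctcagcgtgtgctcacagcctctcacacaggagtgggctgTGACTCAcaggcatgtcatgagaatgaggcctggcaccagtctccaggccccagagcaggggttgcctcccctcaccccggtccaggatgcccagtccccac
CXCL8, chr4:73740319-73740618, plus strand: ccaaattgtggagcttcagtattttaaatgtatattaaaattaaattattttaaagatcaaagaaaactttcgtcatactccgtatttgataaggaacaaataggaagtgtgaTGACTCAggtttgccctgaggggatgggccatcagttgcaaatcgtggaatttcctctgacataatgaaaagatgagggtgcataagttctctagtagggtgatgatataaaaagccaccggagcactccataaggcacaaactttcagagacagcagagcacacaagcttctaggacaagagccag
Of the 286 promoters touched with POM alone, 31 held these letters, and 14 held them inside a POM peak. In all 4 printed promoters the AP-1 letters lay inside the POM peak. Their first base was 1 base before the start of GCNT3, 197 before that of SPRR2A, 52 before that of S100A2 and 137 before that of CXCL8. The centre of the motif was 62 bp from the peak summit at CXCL8, 121 bp at SPRR2A, 174 bp at GCNT3 and 544 bp at S100A2.

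The other 3 promoters were touched with DMSO alone, and here the capitals mark CG dinucleotides. SPATA2L and TRIB3 had no POM peak at their loci. CRBN encodes cereblon, the target of the drug, and its start had an overlapping POM peak that did not reach these bases.
SPATA2L, chr16:89701656-89701955, minus strand: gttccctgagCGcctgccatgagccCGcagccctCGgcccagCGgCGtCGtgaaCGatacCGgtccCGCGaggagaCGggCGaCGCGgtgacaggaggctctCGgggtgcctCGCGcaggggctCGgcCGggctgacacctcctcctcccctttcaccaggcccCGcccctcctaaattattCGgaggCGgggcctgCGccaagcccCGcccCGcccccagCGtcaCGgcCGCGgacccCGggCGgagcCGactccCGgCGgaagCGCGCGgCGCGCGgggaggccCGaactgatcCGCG
TRIB3, chr20:381045-381344, plus strand: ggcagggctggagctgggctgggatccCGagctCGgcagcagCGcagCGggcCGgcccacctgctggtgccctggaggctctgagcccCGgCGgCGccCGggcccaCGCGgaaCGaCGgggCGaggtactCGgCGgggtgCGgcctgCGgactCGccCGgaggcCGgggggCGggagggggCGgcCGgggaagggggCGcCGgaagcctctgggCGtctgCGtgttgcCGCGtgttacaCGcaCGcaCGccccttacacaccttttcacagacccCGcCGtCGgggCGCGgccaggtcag
CRBN, chr3:3179642-3179941, minus strand: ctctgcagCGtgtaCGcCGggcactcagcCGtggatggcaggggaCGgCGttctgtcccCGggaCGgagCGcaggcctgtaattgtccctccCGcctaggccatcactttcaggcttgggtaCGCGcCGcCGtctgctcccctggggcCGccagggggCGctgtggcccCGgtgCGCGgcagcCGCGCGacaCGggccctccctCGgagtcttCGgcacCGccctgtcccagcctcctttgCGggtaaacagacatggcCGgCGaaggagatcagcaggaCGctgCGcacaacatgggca
SPATA2L holds 43 CG in 300 bases, TRIB3 38 and CRBN 31, against a median of 21 over all promoters. The promoter of GCNT3 holds 3 CG, that of SPRR2A 2, that of CXCL8 4 and that of S100A2 5. Their GC content was 42.3%, 46.7%, 39.3% and 61.0%, and that of SPATA2L, TRIB3 and CRBN was 75.7%, 77.0% and 70%.

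The AP-1 letters (TGANTCA, which reads the same on both strands) occur in 6.16% of all promoters. They were in 31 of the 286 touched with POM alone, or 10.8% (7.74 to 14.97), and in 26 of the 1230 touched with DMSO alone, or 2.11% (1.45 to 3.08). Promoters touched in both lists held them in 3.96% of cases and untouched promoters in 7.95%. GC content moved with these classes. Within promoters under 60% GC the share was 14.5% with POM alone (9.84 to 20.8), 10.0% over all, 6.34% with both and 4.91% with DMSO alone. At 60% GC or more it was 6.30% with POM alone (3.23 to 11.9), 3.38% over all, 2.90% with both and 1.69% with DMSO alone. In untouched promoters the share was 11.5% under 60% GC and 4.08% at 60% or more. Counted only where the letters fell inside a peak, there were 15 matches in 34485 promoter bases under peaks of the POM-alone class, or 43.5 per 100 kb. The same count was 13 matches in 140152 bases with DMSO alone, or 9.28 per 100 kb, and 16.3 per 100 kb under POM peaks at promoters touched in both lists. These densities rest on few matches in the one-list classes and were not split by GC content.

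The letters of the interferon-stimulated response element (GAAA, any 2 bases, GAAA), searched like all others on both strands, were in 4.20% of the promoters touched with POM alone (2.42 to 7.19), near the 3.16% over all promoters. The composite ETS-IRF letters (GGAA, any 2 bases, GAAA), which can share bases with that element, were in 5.59% of them (3.47 to 8.89) against 2.51% over all. The Ikaros core TGGGAA was in 29.0% (24.1 to 34.5) against 22.7% over all, 22.6% with both, 23.3% with neither and 16.2% with DMSO alone. Only the AP-1 shares were split by GC content. The other 4 patterns searched (E-box CACGTG, nuclear receptor half-site AGGTCA, a CTCF core of CCA, any 2 bases and AGGGGG, and an NF-kB site of GGGA, any base and TTTCC) were in 8.39%, 10.8%, 1.75% and 0.699% of the POM-alone promoters. Over all promoters they were in 8.32%, 11.9%, 0.731% and 0.504%. A match is a string of letters and was not shown to be a bound site.

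GC content set the classes apart at the DMSO end. The median was 72.7% in promoters touched with DMSO alone, 64.3% in those touched in both lists and 58.2% in those touched with POM alone, against 62.3% over all. Of the 2906 promoters with at least 70% GC that a DMSO peak touched, 770 were touched by no POM peak, or 26.5%. In the 3 lower classes of GC content that share was 8.76% under 50%, 5.06% from 50 to 60% and 7.59% from 60 to 70%. Of the promoters that a POM peak touched, 2.02% were touched by no DMSO peak at 70% GC or more and 10.6% under 50%. These counts regard the 300 bases alone, and a peak of the other list can lie beside them, as at CRBN. In the wider windows of 1000 bp on each side, 548 genes were touched with DMSO alone and 354 with POM alone. The high GC of the DMSO-alone class was not limited to weak peaks. The median was 72.7% where the strongest touching peak had at most 50 summit reads and 73.3% at the 321 promoters where it had over 100. Among DMSO peaks at gene starts, 29 of 2185 with 115 to 184 reads were called with DMSO alone. With 184 to 347 reads it was 3 of 2258, and in the strongest eighth 0 of 1782. A strong peak counted here could thus overlap a POM peak that did not reach the 300 bases. Whether library preparation or amplification differed between the 2 libraries in GC-rich DNA was not tested.

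**Figure D1:**
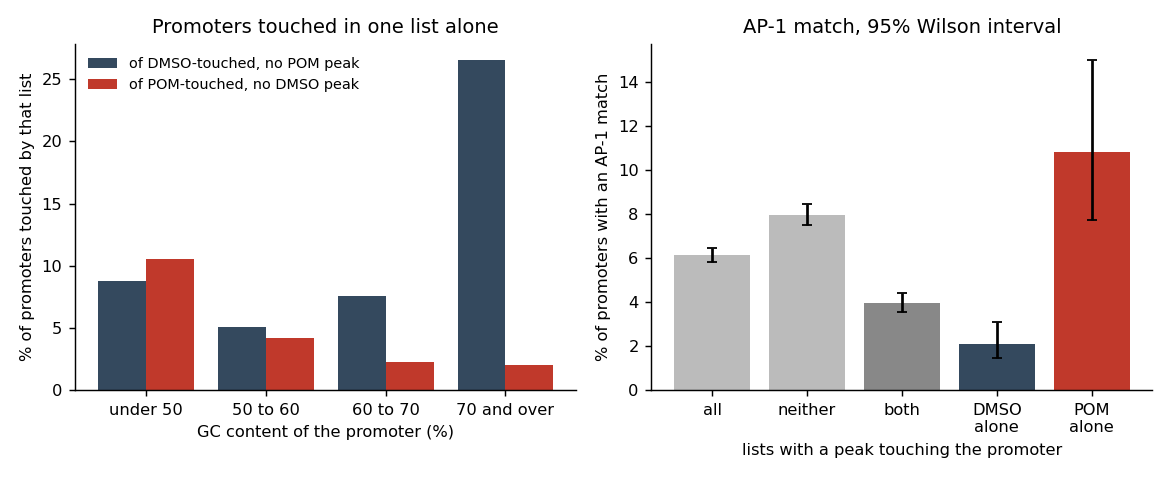
Left, share of the promoters touched by a list that the other list did not touch (y axis, %), by the GC content of the promoter (x axis, %), for DMSO (dark) and POM (red). Right, share of promoters with an AP-1 match (y axis, %) by the lists that touch them (x axis), with 95% Wilson intervals as bars. The DMSO share reaches 26.5% at 70% GC and over, and the AP-1 share is 10.8% with POM alone against 2.11% with DMSO alone.

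At the level of genes, 8635 of 19974 protein-coding genes had a peak midpoint within 1000 bp of a start in both lists (of either end for the 4162 genes without a start in the RefSeq table). A start peak with POM and none with DMSO was found at 552 genes, or 2.76% of all genes. The reverse was found at 713 genes, or 3.57%. Some of these are shared peaks whose midpoint lay in the window in 1 list only. When any shared base with the window counted, 354 genes (1.77%) had POM alone and 548 (2.74%) DMSO alone. The members described first had no peak of the other list anywhere at the locus, which is the gene with 5 kb on each side. These were 166 genes with POM (0.831%) and 260 with DMSO (1.3%).

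The cell type label was checked on marker genes. Of 8 plasma cell markers, 8 had a window touched in both lists. B cell markers had 1 of 7 in both, T cell markers 1 of 8 in each list (CD3E with POM at 92 reads and TRAT1 with DMSO at 39), and myeloid and epithelial or liver markers 0 of 8. The myeloid loci nevertheless had 2 peaks with DMSO and 10 with POM, of which CSF1R had 0 and 6. The epithelial or liver loci had 7 and 15, of which CDH1 had 7 and 12. More locus peaks with POM were at 3 of 8 myeloid and 3 of 8 epithelial or liver markers, and fewer at 0. T cell markers had 4 of 8 with more and 0 with fewer, or 5 and 9 peaks. Over all genes 23% had more and 21.5% fewer. No locus peak in either list was found at 4 of 8 myeloid and 5 of 8 epithelial or liver markers. CD14, MPO, EPCAM, ALB and KRT19 were among these. The part of other cell types in the POM peaks was not tested beyond this.

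The 12 strongest POM start peaks of this kind had between 136 and 576 reads. Peak strength is given as the reads stacked at the summit, which were recovered from the fold enrichment and the p of each peak. GCNT3, which builds branched mucin glycans, had 576 summit reads with POM and 319 with ATRA and POM, no DMSO peak, and 13 reads with ATRA. SPRR2A, a cornified envelope precursor, had 448 with POM and 227 with both compounds. NMNAT2, an NAD-synthesising enzyme, had 263 and 157. S100A2, a calcium-binding protein of epithelia, had 257 and 56. MUC1, a membrane mucin, had 5 locus peaks with POM and no peak in the other 3 lists, and its start peak had 167 reads. CLDN2, a tight junction protein, had 7 locus peaks with POM, the start peak at 136 reads, and 4 with both compounds. All of these loci were without a peak in the DMSO list, and GCNT3 alone of them had one in the ATRA list. S100A2, SPRR2A, MUC1 and CLDN2 are genes of epithelia. The epithelial or liver markers had 0 of 8 windows touched and 3 of 8 loci with more peaks with POM, as given above.

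In the same group RIGI, the cytosolic sensor of viral RNA, had 244 reads with POM and 128 with both compounds. IDO1, which breaks down tryptophan and is induced by interferon gamma, had 242 and 358. DDX60, an antiviral helicase, had 171 and 66. The lipid receptor gene GPR55 had 194 and 56, CCDC198 had 211 and 172, and A2M, a protease inhibitor of plasma, had 152 and 73. These 6 loci held no DMSO and no ATRA peak. The ATRA list comes from far fewer reads: relative to DMSO its depth was 0.133, against 0.927 for POM and 0.902 for ATRA with POM, so a missing ATRA peak says little.

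The DMSO start peaks without any POM peak at the locus were weaker. MAGEB18, of the melanoma antigen family, had 168 summit reads with DMSO and 17 with ATRA. ASB15, which encodes an ankyrin repeat SOCS box protein, had 148 and 22. GALNT5, which starts mucin O-glycosylation, had 141 and 16. SPATA2L had 139 and 7. P2RY10, a lysophospholipid receptor of lymphocytes, had 6 locus peaks with DMSO, the start peak at 130 reads, and no peak with ATRA, POM or both. These 5 loci held no peak in either list with POM.

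The rest of the 12 had between 97 and 122 reads with DMSO and no peak in either list with POM. They were ZSWIM4 (122), DRC3 (116), EVI2B (111), the mitochondrial anchor gene SNPH (107), DHRS9 (103), which encodes a retinol dehydrogenase, ATMIN (99) and PLEKHF2 (97). Of the 12 POM genes, only MUC1, A2M and CLDN2 had a start peak with fewer reads than the 168 of MAGEB18. Read numbers of the 2 libraries carry their own enrichment and are descriptions.

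Interferon-stimulated genes were the list with most start peaks called with POM alone. Of 48 members, 8 had a start peak with POM and none with DMSO, against 2.76% of all genes, and 2 the reverse. Besides RIGI and DDX60 these were IFI6 (119 reads with POM), SP110 (65), TNFSF10, which encodes the death ligand TRAIL (49), the GTPase gene GBP1 (46), EIF2AK2, which encodes the RNA-activated kinase PKR (27), and USP18, which removes ISG15 from proteins (21). With both compounds the first 3 had 69, 39 and 45 reads, and the other 3 had no start peak. The EIF2AK2 locus had 2 peaks with DMSO and 1 with POM. Of the 2 reverse members, BST2 had a broad DMSO peak of 974 reads that overlapped POM peaks, and GBP2 had 42 reads with DMSO and no locus peak with POM. Under the rule that any shared base counts, 8 members had POM alone and 1 DMSO alone. No start peak in either list was found at 18 members, as at 10074 of 19974 genes in all. No locus peak in either list was found at 15, among them ISG15 and MX1, as at 6547 genes in all. At the locus 15 members had more peaks with POM and 8 fewer, or 51 peaks in all with DMSO and 63 with POM. Over all genes 23% had more and 21.5% fewer.

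The 20 members with a start peak in both lists moved the same way at part of the genes. After scaling by depth, the strongest POM peak had at least 2 times the reads of the overlapping DMSO peak at 8 of the 20. Over all genes with overlapping strongest peaks this held for 268 of 7659, or 3.5%. OAS1, an activator of RNase L, had 59 reads with DMSO and 796 with POM. IFIT1, which binds viral RNA caps, had 115 and 433, and its neighbours IFIT3 and IFIT5 had 165 and 456, and 118 and 336. The RNA sensor gene IFIH1 had 213 and 417, and the antiviral GTPase gene MX2 had 86 and 173. PARP9 and PARP14, which act in interferon signalling, had 39 and 121, and 18 and 42. Against this, OASL had 374 and 166, and the factor IRF1 had 74 and 30: at least 2 times more with DMSO, as at 8.4% of all such genes. STAT2 had 345 and 273 and IRF9 121 and 97, so that these were not among the 8.

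In the promoters of IFI6, GBP1 and TNFSF10 the interferon-stimulated response element letters were present, but the match lay outside the POM peak in each. The IFI6 peak (chr1:27672440-27672850) lay on the upstream side of that promoter, and those of GBP1 (chr1:89065111-89065291) and TNFSF10 (chr3:172523278-172523455) covered the start site.

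Checkpoint and costimulatory genes gave a few further cases among 28 members. CD40, a receptor of B cells, had 83 reads at one end of the gene with POM, 85 with both compounds and no DMSO peak, and its locus had 0 peaks with DMSO and 3 with POM. ICAM1, an adhesion ligand, had 31 reads at the start with POM and 0 against 3 locus peaks. Among members with overlapping start peaks in both lists, which were 3, CD274 and PDCD1LG2, the genes of the ligands PD-L1 and PD-L2, had at least 2 times more reads with POM, against 3.5% of all such genes. CD274 had 44 reads with DMSO, 409 with POM and 688 with both compounds, and PDCD1LG2 had 34, 67 and 71. HHLA2 (103 reads) and CD47 (27 reads) had DMSO start peaks in a window that a POM peak also touched. At the locus 6 members had more peaks with POM and 7 fewer.

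Cytokines and growth factors had 3 of 31 members with a start peak with POM alone and 1 the reverse, against 2.76% and 3.57% of all genes. CXCL8, a neutrophil chemokine, had 77 reads and CSF2, which encodes GM-CSF, 18. IGF1, a growth factor of myeloma cells, had 32, but DMSO peaks also touched its start window, and its strongest locus peak had 602 and 611. VEGFB had 28 reads with DMSO. More locus peaks with POM were found at 11 members and fewer at 3, or 33 against 44 peaks in all, where 23% and 21.5% of all genes had more and fewer. IL2, the cytokine that pomalidomide is known to raise in T cells, had no peak in either list. Receptor tyrosine kinases had 2 of 30 members with POM alone and 1 (FGFR3) with DMSO alone, against the same 2.76% and 3.57%. FGFR2 had 43 reads and 2 against 9 locus peaks, and KIT 26 reads and 0 against 4. KDR, the main VEGF receptor, had 0 locus peaks with DMSO and 2 with POM, the stronger at 603 reads. At the locus 9 kinases had more peaks with POM and 7 fewer, beside the same 23% and 21.5% of all genes.

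Of 27 genes of the unfolded protein and integrated stress responses, 3 had a start peak with DMSO alone and 3 with POM alone, against 3.57% and 2.76% of all genes. The POM peaks of the last 3 (EDEM1, ERN1 and CEBPB) overlapped DMSO peaks. Under the rule that any shared base counts, 0 had POM alone and 2 DMSO alone, TRIB3 and SESN2, against 1.77% and 2.74% of all genes. TRIB3, a pseudokinase induced by ATF4, had 5 locus peaks with DMSO, 2 with ATRA and 0 with POM or with both, and its start peak had 39 reads. SESN2, which restrains mTORC1 when amino acids are short, had 267 reads at its start with DMSO and none with POM. Where both lists had a start peak, 12 of 17 had fewer depth-scaled reads with POM, a share near that of all genes (5494 of 8635). CHAC1, which degrades glutathione, had 123 and 24, and ATF4 itself 123 and 71. ASNS, which makes asparagine, had 149 and 59, but in neighbouring peaks that did not overlap. The ATF6 locus had 13 and 6 peaks, that of HERPUD1 12 and 6, and in the other direction that of ERN1 17 and 25 and that of EIF2AK3 16 and 21. In the list 7 members had more locus peaks with POM and 12 fewer, against 23% and 21.5% of all genes.

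Cereblon and its partners and substrates had start peaks in both lists or none, though at IKZF3 the strongest lay at opposite gene ends. Of 15 members, 13 had both and 0 had either list alone, where 2.76% and 3.57% of all genes did. More locus peaks with POM were at 3 and fewer at 7, or 68 against 54 peaks in all, against 23% and 21.5% of all genes. CRBN had 46 reads at its start with DMSO (chr3:3178971-3179676) and 21 with POM (chr3:3178936-3179486), the DMSO peak alone reaching into the promoter printed above. IKZF1 had a start peak of 1110 reads with DMSO and 1431 with POM. The strongest IKZF3 locus peak had 1050 and 1576 reads, and the locus had 14 and 15 peaks. Its strongest gene-end peak was at chr17:39860293-39867965 with DMSO (1050 reads) and at chr17:39755170-39758816 with POM (119). ZFP91, another neosubstrate, had 103 and 39 reads at its start and 7 and 3 locus peaks. Strongest start peaks overlapped at 8 members. Of these, CRBN and ZFP91 had at least 2 times more depth-scaled reads with DMSO and CUL4B with POM. Over all such genes these shares were 8.4% and 3.5%.

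Genes downstream of Ikaros in myeloma gave mixed values. IRF4 had 8 locus peaks with DMSO and 4 with POM, the strongest at 476 and 391 reads, and a start peak of 31 reads with DMSO that no POM peak overlapped, though a POM peak touched the start window. Of the IRF4 locus peaks, 4 with DMSO and 0 with POM were called in that list alone. MYC had 97 and 81 reads at its gene end and 6 and 3 locus peaks, of which 1 and 0 were called in that list alone. PRDM1, the plasma cell repressor also called BLIMP1, had 5 and 6 locus peaks with 897 and 1333 reads at the strongest. XBP1, which drives the secretory programme, had 4 and 2 with 819 and 1544. Of these, 3 and 1 were called in that list alone at PRDM1 and 0 and 0 at XBP1. IRF8 had 51 reads at a start with POM and no DMSO peak, and POU2F2 had 3 locus peaks with DMSO and 0 with POM. Of 18 plasma cell factors, 8 had more locus peaks with POM and 8 fewer, against 23% and 21.5% of all genes.

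Surface antigens of myeloma had 0 of 14 members with more locus peaks with POM and 4 with fewer, or 62 against 51 peaks. Over all genes 23% had more and 21.5% fewer, and in a list of 14 such counts are small. CD38, the antigen of daratumumab, had 314 reads at its start with DMSO, 76 with POM, 16 with ATRA and 526 with both compounds. The POM peak there (chr4:15778317-15778780) covered a part of the DMSO peak (chr4:15778330-15779883). The locus had 3 peaks in both lists, and its strongest had 314 reads with DMSO and 416 with POM, the other way round. SDC1, which encodes CD138, had 109 and 105 reads. TNFRSF17, which encodes BCMA, had 2 locus peaks in both lists, the strongest at 1239 and 1796 reads. Of 6 members with overlapping start peaks, CD38, FCRL5 (188 and 52) and LY9 (247 and 102) had at least 2 times more reads with DMSO, against 8.4% of all such genes.

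At the loci of the translocation, NSD2 had 10 peaks with DMSO and 11 with POM, of which 2 and 2 were called in that list alone. FGFR3 had 4 and 4, of which 1 and 0 were. Both had a start peak called at the midpoint with DMSO alone (86 and 24 reads), and a POM peak overlapped each of these. RARB, which encodes the receptor named in the study's title, had 18 and 23 locus peaks, the strongest at 291 and 1175 reads. RARG had 22 reads at its start with POM alone, and 7 and 11 locus peaks. Of 29 retinoid genes, 1 had a start peak with POM alone and 3 with DMSO alone, against 2.76% and 3.57% of all genes. The DMSO peaks of RARA and RDH10 among these overlapped POM peaks. Under the rule that any shared base counts, 1 had POM alone and 1 DMSO alone, against 1.77% and 2.74%. At the locus 10 had more peaks with POM and 7 fewer, against 23% and 21.5% of all genes.

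Most of the other lists lay near the genome background or went both ways. Start peaks with POM alone and with DMSO alone were at 2.76% and 3.57% of all genes. NF-kB pathway genes had 0 of 26 members with POM alone and 1 with DMSO alone. Their start reads differed more from the background. Of their 18 members with both, 15 had fewer depth-scaled start reads with POM, against 5494 of 8635 genes in all. The median was 186.5 reads with DMSO and 66.5 with POM, against 172 and 142 over all genes. At least 2 times more with DMSO was found at 4 of the 18, or 22.2% against 9.08% of all genes. In overlapping peaks this held for 2 of 16, or 12.5% against 8.4%. RELB had 175 and 58 in overlapping peaks, while its strongest locus peak had 759 and 928. Antigen presentation genes had 0 of 26 and 1 (HLA-B, 27 reads with DMSO). BCL2 family and death receptor genes had 1 of 29 with POM alone (BID, 27 reads) and 11 with more against 10 with fewer locus peaks. Cyclins and their inhibitors had 0 of 20 and 1 (E2F1, 49 reads with DMSO), adhesion receptors 1 of 25 and 3, chromatin regulators 1 of 40 and 3, and replication and mitosis genes 1 of 40 and 1. Under the rule that any shared base counts, the 56 ribosomal protein genes and the 32 proteasome genes had 0 members in either direction.

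Away from gene starts, some loci differed by many peaks. The locus of GRID1, a glutamate receptor-like gene, had 5 peaks with DMSO and 26 with POM, the strongest at 68 and 1338 reads. ATP2B2, a calcium pump, had 3 and 22, CACNA1D, a calcium channel, 2 and 21, and HIVEP3, a zinc finger gene, 12 and 31. RAP1GAP2 had 9 and 27, ANK1, an ankyrin, 2 and 18, and HDAC5, a histone deacetylase, 3 and 21. IGFL2 had 0 and 18. In the list with both compounds each of these 8 loci except that of RAP1GAP2 had more peaks than with DMSO, from 3 at IGFL2 to 19 at HDAC5, and RAP1GAP2 had 7. At HDAC5 the start peak itself had 717 reads with DMSO and 273 with POM.

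The 8 genes with the largest difference the other way were over 300 kb long, except IQCB1. PCDH15, a cadherin of hair cells, had 29 peaks with DMSO and 10 with POM, NAALADL2 31 and 15, and PRKG1, a cGMP-dependent kinase, 22 and 8. IMMP2L had 39 and 27, IQCB1 19 and 7, PDE4D, a phosphodiesterase, 22 and 10, RIMS2 16 and 4, and EYS 15 and 4. With both compounds PRKG1 had 20 peaks, nearer to DMSO, while IMMP2L had 30, NAALADL2 16, PDE4D 12, IQCB1 7, EYS 7, PCDH15 6 and RIMS2 6, nearer to POM. At least 5 more locus peaks with POM were found at 292 genes of median length 180 kb, and at least 5 fewer at 192 of median length 188 kb, against 24.2 kb over all genes. Of the 771 genes over 300 kb, 41.0% had more and 42.2% fewer. Neuronal adhesion and synapse genes, which are among the longest, had 20 of 50 members with more and 22 with fewer, and their loci held 257 peaks called with POM alone and 250 with DMSO alone.

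**Figure D2:**
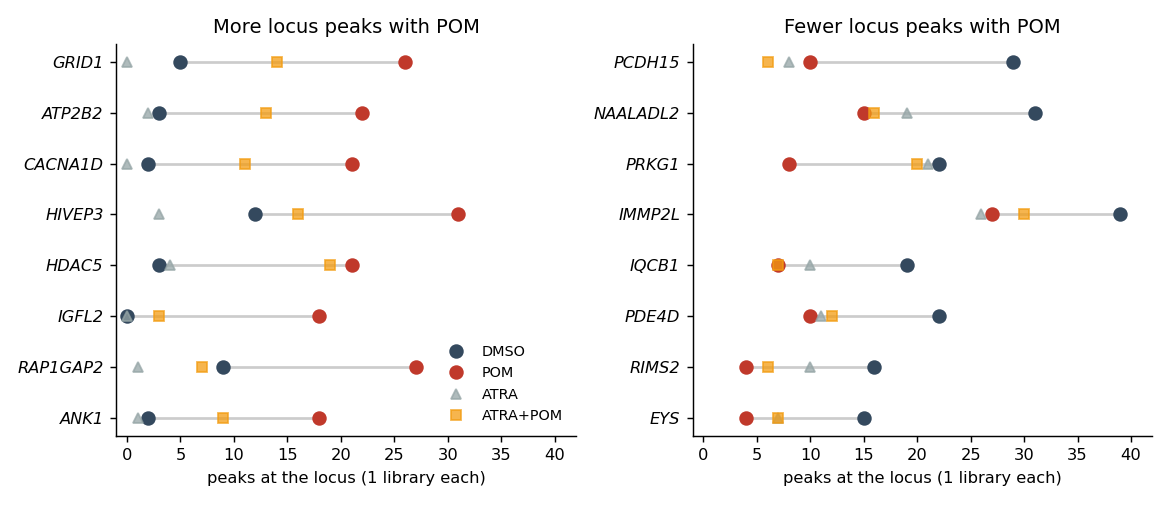
Peaks at the locus (x axis, number of peaks) of the 8 genes with most added peaks with POM (left) and the 8 with most missing (right), 1 library a point: DMSO (dark circles), POM (red circles), ATRA (grey triangles, at 0.133 of the DMSO depth) and both compounds (orange squares). GRID1 goes from 5 with DMSO to 26 with POM, and PCDH15 from 29 to 10.

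One-list peaks also came in runs. Within 100 kb, 17 peaks called with POM alone lay over PLEKHG3 and SPTB (chr14:64671789-64762663), with 1 DMSO peak among them. Another 17 lay over TMEM101, LSM12, G6PC3 and HDAC5 (chr17:44010493-44096416), with 6 DMSO peaks among them. A keratin run held 16 over KRT80, KRT7 and KRT86 (chr12:52183451-52277409), with 0 DMSO peaks inside it, 0 with ATRA and 5 with both compounds. The run ends at its last peak called with POM alone. Just past that end, still within KRT86, lay DMSO peaks of 98 and 60 reads and an ATRA peak of 15. KRT80 itself had 0 and 7 locus peaks, the strongest at 482 reads with POM. The next runs held 15 each, nearest to ERRFI1, a feedback inhibitor of EGFR, and over HAVCR1 and HAVCR2, the second of which encodes the checkpoint receptor TIM-3. The ERRFI1 run held 3 DMSO peaks and the HAVCR run 4. In all, the HAVCR run had 18 peaks with POM and 19 with both compounds. The IGFL2 and IGFL3 run had 14 peaks with POM and 0 with DMSO.

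Among runs called with DMSO alone, the run over EDEM3 and NIBAN1 (chr1:184693126-184793111) had 15, with 31 to 70 reads each, beside 10 POM peaks. The run over IQCB1 and EAF2 also had 15, with 21 to 51 reads. Those over ATF2 and ATP5MC3, BMP6 and TXNDC5, and SOX12 to RBCK1 with TRIB3 had 11 each. Beside these lay 7 POM peaks in the IQCB1 run, 9 in the ATF2 run, 14 in the BMP6 run and 4 in the SOX12 run. The median reads of one-list peaks were 37 in the EDEM3 run, 73 in the PLEKHG3 run, 45.5 in the KRT80 run and 36 in the HAVCR run, so that the directions overlap. P2RY10 had a run of 10 with 0 POM peaks, the strongest at 130 reads.

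**Figure D3:**
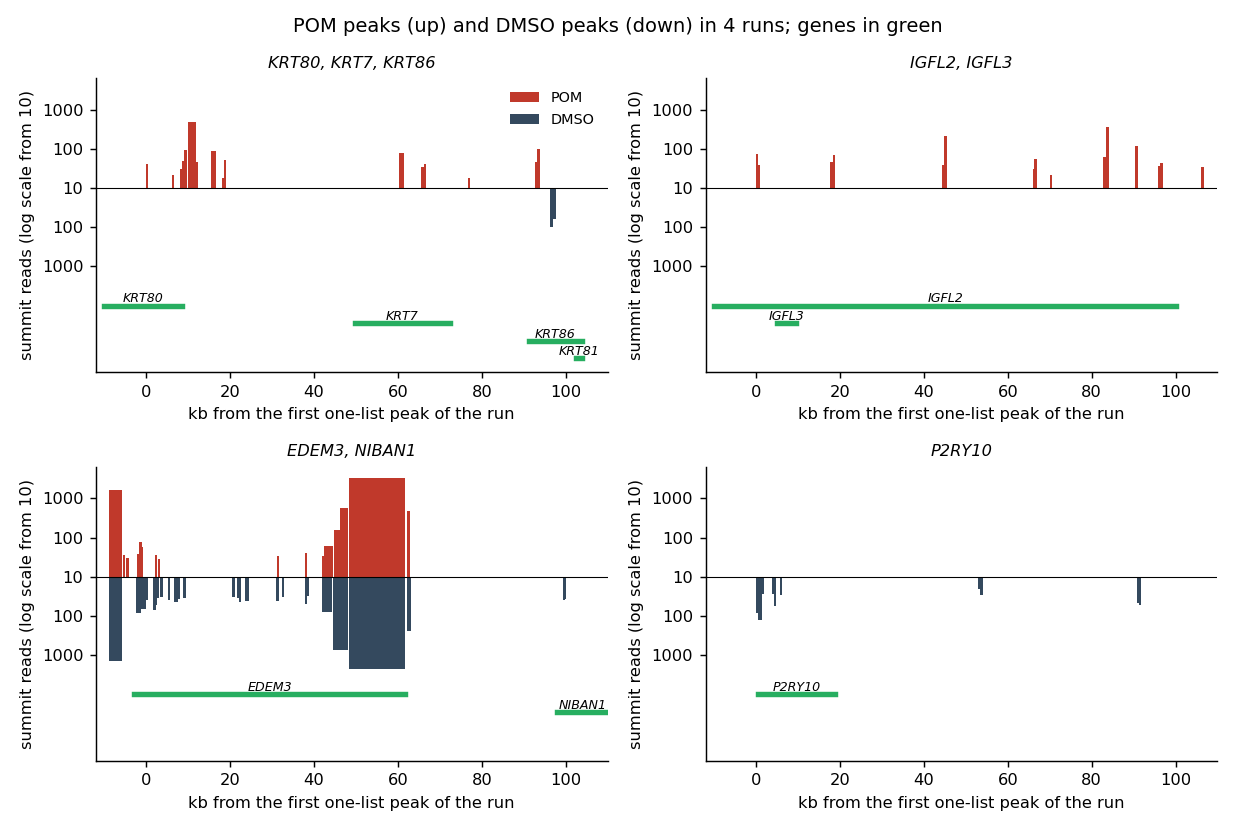
Summit reads (y axis, log scale starting at 10) of POM peaks (red, upward) and DMSO peaks (dark, downward) along 4 runs, by distance from the first one-list peak (x axis, kb), with genes as green bars. The keratin and IGFL2 runs hold POM peaks and 0 DMSO peaks, but DMSO peaks of 98 and 60 reads lie in KRT86 just past the keratin run. P2RY10 holds 10 DMSO peaks and 0 POM peaks. At EDEM3 the one-list DMSO peaks of 31 to 70 reads lie among strong shared peaks.

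Strong one-list peaks also lay far from genes. Over 10 kb from any gene, the strongest POM peak without a DMSO peak was 106 kb from NFIB (chr9:13973950-13976117), with 1559 reads with POM and 1112 with both compounds. Next were peaks 16.9 kb from TXNDC8 with 1406 and 912 reads, 30.7 kb from PPP1R13B with 1350 and 926, and 13.0 kb from RAB7B (chr1:205960844-205963790) with 1311 and 233. A peak 553 kb from MEF2C had 1139 and 488. All 10 of the strongest such POM peaks had a peak in the list with both compounds, and none had one with ATRA.

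The strongest such DMSO peak was 67.4 kb from ANKRD7 (chr7:118310113-118313142), with 2327 reads with DMSO, 503 with ATRA and 0 peaks in both lists with POM. A peak 25.4 kb from LMO3 had 1039 with DMSO and 200 with ATRA. One 212 kb from LCORL had 892, 153 and, with both compounds, 31, and one 201 kb from CDH18 had 858, 148 and 55. All 10 strongest DMSO peaks of this kind had an ATRA peak in spite of its depth. With both compounds the 10 had either no peak or one of 31 to 147 reads.

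Taken by place, 42.7% of the peaks called with POM alone were over 10 kb from any gene, against 35.1% of those with DMSO alone, and 44.5% and 45.7% were in gene bodies. Seen from each list, 14.5% of DMSO peaks at gene starts were called in that list alone (13.9 to 15.1), against 6.14% of POM peaks at starts (5.74 to 6.56). Over 10 kb from genes the shares were 37.4% and 43.9%. Peaks called with POM alone were a median of 16.0 kb from the nearest DMSO peak, and 15.2% were within 500 bp of one. Those called with DMSO alone were a median of 10.9 kb from a POM peak, and 22.4% were within 500 bp.

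**Figure D4:**
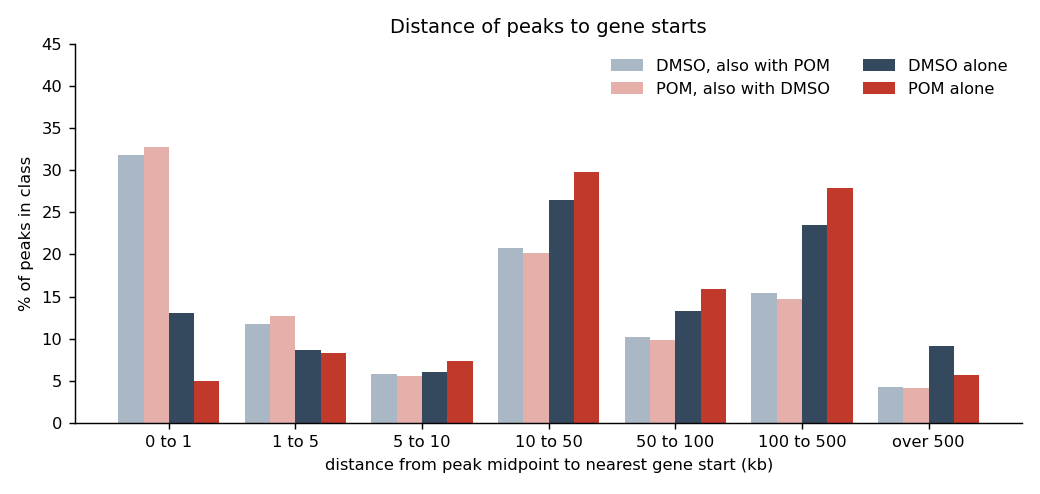
Share of peaks (y axis, % of the class) by distance from the peak midpoint to the nearest gene start (x axis, kb), for shared peaks of the DMSO and POM lists (pale) and peaks called with DMSO alone (dark) and POM alone (red). Within 1 kb of a start lie 31.8% and 32.8% of shared peaks, 13.0% with DMSO alone and 4.96% with POM alone.

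One-list peaks were narrower and weaker than shared ones. The median width was 290 bp with POM alone against 618 bp for shared POM peaks, and 270 bp with DMSO alone against 693 bp. Median summit reads were 43 against 100, and 42 against 112. In bases, 15.7% of the POM list and 12.9% of the DMSO list was in one-list peaks. At the strong end the sets differed: 472 peaks with POM alone had at least 300 reads and 168 with DMSO alone, 20 and 5 were at least 3 kb wide, and 22.2% and 12.3% had a fold enrichment of at least 10, the authors' value for each list.

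Among the weakest eighth of peaks at gene starts, 865 of 1364 DMSO peaks were called in that list alone, or 63.4%, and 318 of 1590 POM peaks, or 20.0%. Among the strongest eighth at starts, 0 of 1782 DMSO peaks and 5 of 1490 POM peaks (0.336%) were. Over 10 kb from genes the strongest eighth gave 3.52% with DMSO and 9.61% with POM.

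**Figure D5:**
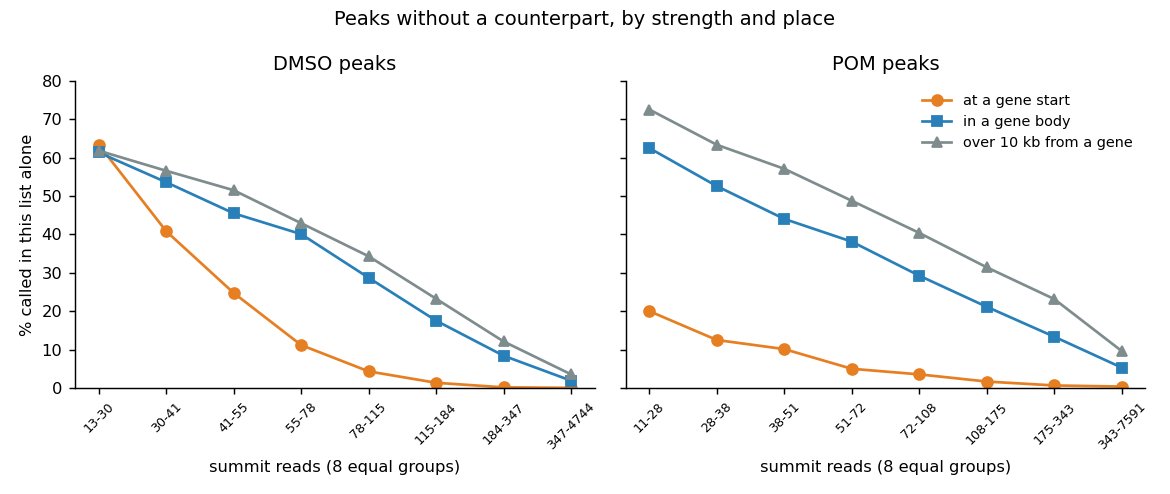
Share of peaks called in one list alone (y axis, %) by summit reads in 8 groups of equal size, weakest to strongest (x axis, reads), for DMSO (left) and POM (right) peaks at gene starts (orange circles), in gene bodies (blue squares) and over 10 kb from genes (grey triangles). At gene starts the weakest group reaches 63.4% with DMSO and 20.0% with POM.

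Of the shared POM peaks, 69.3% formed a pair with a single DMSO peak. In these 26264 pairs the summits were a median of 30 bp apart, and 63.5% were within 50 bp. At gene starts 65.0% of pairs were wider with DMSO (medians of 672 and 609 bp, 120 and 97 reads), while over 10 kb from genes 48.9% were (99 and 104 reads). By chromosome, the share called with POM alone ran from 19.3% on chromosome 19 to 34.7% on chromosome 15, and with DMSO alone from 18.0% on chromosome 19 to 35.5% on chromosome 4.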

How the data were processed

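OPM-2 cells gave 1 ChIP and 1 input library for every treatment, and groups follow the sample titles. The DMSO and POM peak lists were compared, and the ATRA and ATRA+POM lists gave side values. The build was hg38 as stated in the submitters' processing notes. The aligner, the caller and the antibody were not given in the sources used here. The deposited lists, called by the authors per library, give each peak a score, a fold enrichment (a ratio of summit to local background), a −log10 p and a −log10 q. The deposited −log10 p was at least 5 in both lists.

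Peaks on chromosomes 1 to 22 and X were kept, leaving out 151 with DMSO and 153 with POM. Summit reads were recovered from fold and p under a Poisson model, whole within 0.02 for at least 99.998% of peaks of both lists. This is an inference from the values. The depth of POM relative to DMSO was 0.927, from the lowest background that at least 20 peaks shared, per base of the narrowest peak. Total reads per library were not used here.

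Genes were 19974 protein-coding RefSeq genes of GRCh38.p14. Start windows of 1000 bp on each side were set on annotated starts for 15812 genes and on either end for 4162. The locus was the gene with 5000 bp on each side. Promoter sequences came from the same RefSeq set and 8 motifs were searched. The comparison of start reads at genes with peaks in both lists, scaled by depth, was added after the data were seen.

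No test was made, since there was 1 library per treatment. Intervals are 95% Wilson. Named genes were the 12 strongest start peaks of 1 list without a locus peak in the other, the 8 largest differences in locus peaks, list members with a start peak in 1 list (up to 8), 15 genes always, the 10 strongest distant peaks and the 5 fullest runs, each per direction. Other named genes were chosen after their values were seen. The members and the 24 gene lists were chosen with earlier results of these data known. Alternatives were the stronger 50% of each list, equal numbers of peaks, a fold of at least 10, 50% overlap, peaks within 500 bp, windows of 3000 bp, merged peaks and the gene body alone. Either end of every gene, any shared base with the window, and the stronger 50% against the whole other list were added later. Steps were tested on simulated data, where every planted overlap and read number was recovered. Software was pandas 2.3.3, scipy 1.17.1 and numpy 2.4.6 under Python 3.11.15, and figures were drawn with matplotlib 3.10.9.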

Additional observations from a re-analysis of the deposited data

How the results depend on the processing

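The share of peaks in 1 list alone moved with each alternative run. With POM it was 30.2%, and 27.4% for the stronger 50% of each list, 28.4% at equal numbers, 30.6% at a fold of at least 10, 35.4% at 50% overlap, 25.6% with peaks within 500 bp shared and 14.5% for the stronger 50% against the whole other list. With DMSO it was 29.3%, and in the same order 25%, 31.0%, 24.6%, 35.5%, 22.7% and 9.7%, so that at equal numbers and at 50% overlap the DMSO share was the higher. The gene-start share with POM alone was 4.96%, and 7.64% (stronger 50%), 12.1% (fold), 5.67% (50% overlap), 3.43% (500 bp), 9.71% (window of 3000 bp) and 2.75% (stronger 50% against all). With DMSO alone it was 13.0%, and 21.0%, 23.4%, 14.3%, 7.83%, 18.2% and 5.1% in that order, with 13.7% at equal numbers and 12.5% for either end. It was higher with DMSO alone than with POM alone under each of these. Genes with a start peak with POM alone numbered 552, 354 when any shared base counted and 232 for the stronger 50% against all. The last gave 154 in place of 713 genes with DMSO alone. Genes with more locus peaks with POM numbered 4591 and 2982 in the stronger 50%, where 3231 had fewer, and at equal numbers 3997 had more and 4781 fewer, so that order turned. Genes with fewer numbered 4299 and, with peaks within 500 bp merged, 2727.

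No paired analysis was possible because each treatment had 1 ChIP library. For the same reason leaving out a replicate was not possible. The median summit of a one-list peak held 43 reads with POM and 42 with DMSO, which limits the precision of single weak peaks. Differences in immunoprecipitation, library preparation and treatment cannot be told apart in 1 library each.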
